A study of Homo sapiens with 6 samples.

Results

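The 34 genes described here are zinc finger genes of 19q13.11 to q13.12 on human chromosome 19, taken by name from a table of 57820 human genes, and all 34 were found by Ensembl identifier. RNA was measured in 3 samples of DKO1 cells and 3 samples of the parental HCT116 cells (WT). HCT116 is an established human colorectal cancer line, and DKO1 is a derivative of it in which DNMT1 and DNMT3B were knocked out. Both were grown in the same serum-supplemented McCoy's medium, and messenger RNA was sequenced from stranded libraries. DKO1 is a single derived line, and what follows from the knockouts and what else separates it from HCT116 cannot be told apart. The labels number the replicates 1 to 3 and do not say whether they were separate cultures, so the spread between them may be technical.

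Most genes of these clusters encode proteins with an array of C2H2 zinc fingers that reads DNA and an amino-terminal KRAB domain. The KRAB domain recruits TRIM28 (KAP1), which brings the H3K9 methyltransferase SETDB1 and HP1 proteins to the bound site, and many KRAB zinc finger proteins silence transposable elements in this way. The genes themselves arose by tandem duplication, start in CpG-rich promoters and lie in chromatin that carries H3K9 methylation over their finger exons. DNMT1 copies CpG methylation to the new strand after replication, and DNMT3B places it at unmethylated sites.

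Values are TPM, a length-corrected abundance with the same total in every sample, so the depth behind each value is unknown. DNMT1 was at 31.1, 30.8 and 46.8 TPM in DKO1 replicates 1 to 3, against 245, 250 and 231 TPM in WT replicates 1 to 3 (log2 fold change -2.73, SE 0.17, limma adjusted p = 3.59e-05). DNMT3B was at 4.86, 4.85 and 3.56 TPM in DKO1, against 8.22, 7.09 and 6.77 TPM in WT (log2 fold change -0.63, SE 0.17, limma adjusted p = 0.03). A knocked-out gene can still be transcribed, so these levels check the labels in part. Mitochondrial transcripts held 21.2% to 27.7% of the TPM in DKO1 and 19.7% to 20.1% in WT. Of 12 epithelial markers, 8 reached 1 TPM in all 3 DKO1 samples and 8 in all 3 WT samples. EPCAM was at 371 to 500 TPM in DKO1 and 457 to 536 TPM in WT, while VIL1, LGALS4 and CLDN3 stayed below 0.5 TPM throughout. At a limma adjusted p below 0.05, CDH1, CLDN4 and ELF3 were higher in DKO1 and CDX2 was lower. The 12 summed to 717 to 974 TPM in DKO1 and 958 to 1201 TPM in WT. Endothelial markers summed to 0.06 to 0.16 TPM in DKO1 and 0.02 to 0.23 TPM in WT. Summed markers of other cells were higher in DKO1 for mesenchyme (729 to 901 TPM against 230 to 270 TPM in WT, nearly all of it VIM), for neural cells (29.1 to 30.4 TPM against 5.11 to 8.01 TPM) and for blood (3.7 to 4.43 TPM against 0.34 to 0.62 TPM), with HBB at 0 in every sample. The part of these differences in the results below was not tested, and in bulk RNA fewer expressing cells and less RNA per cell cannot be told apart.

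The zinc finger genes fell into a group that was all but silent in WT and a group that was expressed in both lines. Of the 34 genes, 18 were below 0.1 TPM in every WT sample, and 11 of these 18 reached 1 TPM in each DKO1 sample. In the same terms 401 of all 57820 human genes were silent in WT and on in DKO1 (0.694%), and 280 of the 5770 protein-coding genes silent in WT were on in DKO1 (4.85%). The 11 were ZNF599, ZNF30, ZFP82, ZNF260, ZNF529, ZNF461, ZNF567, ZNF850, ZNF568, ZNF420 and ZNF569. Their values ran from 1.36 to 12 TPM in DKO1 and from 0 to 0.09 TPM in WT. A further 12 genes were at 1 TPM or above in all 6 samples. The genes at 1 TPM or above numbered 26, 27 and 27 of 34 in DKO1 replicates 1 to 3, and 12 in each WT replicate. None of the 11 was listed at exactly 0 in all 3 WT samples.

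**Figure D1:**
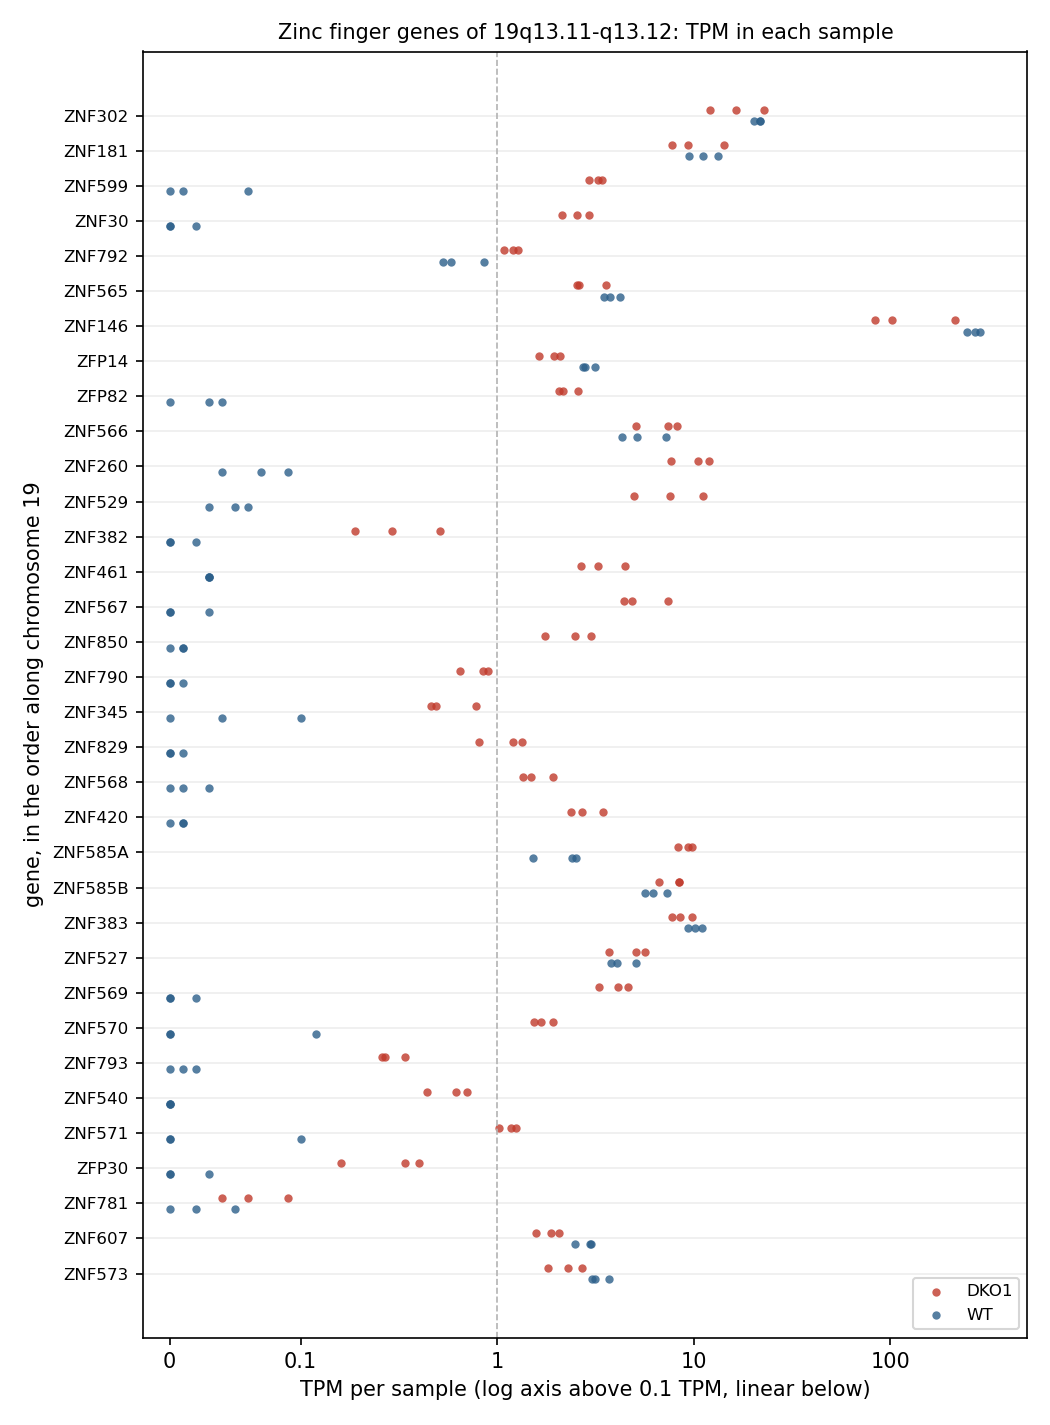
TPM of each of the 34 genes in the 3 DKO1 samples (red) and the 3 WT samples (blue), with genes in their order along the chromosome and 1 point per sample; the axis is logarithmic above 0.1 TPM and linear below, and the dashed line marks 1 TPM. The 11 genes that were silent in WT and on in DKO1 lie between 1.36 and 12 TPM in DKO1 and at 0.09 TPM or below in WT. The rule that picked them keeps their groups apart. Genes outside that rule, such as ZNF302 and ZNF181, can overlap.

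Genes were tested with limma on log2(TPM + 1) where at least 3 of 6 samples reached 1 TPM, and called at an adjusted p below 0.05 over all 13604 tested genes. Of the 34 zinc finger genes 26 were tested, and 14 were called higher and 1 lower in DKO1, against 18.8% of all tested genes called higher and 9.6% called lower. The filter itself shapes this count, because 14 of the 26 passed through DKO1 alone, and 13 of those were called higher. Of all 1063 genes that passed through DKO1 alone, 96.2% were called higher. Among the 12 zinc finger genes that passed through both genotypes, 1 was called higher and 1 lower, against 12.3% and 10% of all such genes. Fitted without a filter, so that all 34 entered, 21 were called higher and 0 lower, against 14.9% and 3.72% of the 29487 genes then fitted. All 3 DKO1 values lay above all 3 WT values for 22 of the 34 genes and below them for 4, against 13.3% and 4.73% of all human genes, and 28% and 11.6% of protein-coding genes.

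ZNF260 had the largest difference of the 34. It encodes a protein made almost only of zinc fingers, without a KRAB domain, and its rat counterpart is a transcription factor of the heart. ZNF260 was at 7.67, 10.5 and 12 TPM in DKO1, against 0.04, 0.07 and 0.09 TPM in WT (log2 fold change 3.35, SE 0.18, limma adjusted p = 2.19e-05). The lowest DKO1 sample was far above the highest WT sample, but the rule that picked the 11 genes silent in WT and on in DKO1 keeps their groups apart. ZNF260, like the others of the 11, passed the filter through DKO1 alone, where 96.2% of all genes were called higher. Its neighbour ZNF529 was at 4.99, 7.58 and 11.2 TPM in DKO1, against 0.05, 0.03 and 0.06 TPM in WT (log2 fold change 3.03, SE 0.25, limma adjusted p = 0.000131). For both genes DKO1 replicate 1 was the lowest of the DKO1 samples and replicate 3 the highest.

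ZNF567 was at 4.42, 4.85 and 7.38 TPM in DKO1, against 0, 0.03 and 0 TPM in WT (log2 fold change 2.67, SE 0.19, limma adjusted p = 6.19e-05). ZNF569 was at 3.29, 4.1 and 4.63 TPM in DKO1, against 0, 0 and 0.02 TPM in WT (log2 fold change 2.31, SE 0.15, limma adjusted p = 4.04e-05). ZNF461 was at 2.68, 4.47 and 3.26 TPM in DKO1, against 0.03 TPM in every WT sample (log2 fold change 2.10, SE 0.17, limma adjusted p = 0.000121). In these genes no WT sample exceeded 0.03 TPM. ZNF599 was at 2.94, 3.4 and 3.25 TPM in DKO1, against 0.01, 0.06 and 0 TPM in WT (log2 fold change 2.03, SE 0.13, limma adjusted p = 3.43e-05). ZNF30, its neighbour, was at 2.54, 2.15 and 2.92 TPM in DKO1, against 0.02, 0 and 0 TPM in WT (log2 fold change 1.81, limma adjusted p = 7.97e-05). The WT means were too low for a ratio of TPM in any of these genes.

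Several genes of this silent set have roles described in cancer or development. ZNF420, also known as APAK, is a KRAB protein that binds p53 and restrains its pro-apoptotic targets. It was at 2.38, 2.71 and 3.46 TPM in DKO1, against 0.01, 0.01 and 0 TPM in WT (log2 fold change 1.93, limma adjusted p = 8.59e-05). ZFP82, described as methylated in some carcinomas, was at 2.07, 2.58 and 2.17 TPM in DKO1, against 0, 0.03 and 0.04 TPM in WT (log2 fold change 1.67, limma adjusted p = 8.59e-05). Both are among the 11 genes whose groups the rule keeps apart. ZNF568, whose mouse counterpart silences a placental transcript of Igf2 through TRIM28, was at 1.36, 1.92 and 1.48 TPM in DKO1, against 0.03, 0 and 0.01 TPM in WT (log2 fold change 1.35, limma adjusted p = 0.0003). Its call was lost under quantile normalization (log2 fold change 0.63, adjusted p = 0.0589). ZNF850 was at 1.76, 2.5 and 3 TPM in DKO1, against 0.01, 0.01 and 0 TPM in WT (log2 fold change 1.75, limma adjusted p = 0.000235).

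ZNF570 and ZNF571 were also called, after passing the filter through DKO1 alone, with WT samples that reached 0.12 and 0.1 TPM. ZNF570 was at 1.54, 1.93 and 1.67 TPM in DKO1, against 0.12, 0 and 0 TPM in WT (log2 fold change 1.38, limma adjusted p = 0.00023). ZNF571 was at 1.02, 1.17 and 1.25 TPM in DKO1, against 0, 0.1 and 0 TPM in WT (log2 fold change 1.05, limma adjusted p = 0.000616). Both kept their direction under quantile normalization, but ZNF571 lost its call (log2 fold change 0.25, adjusted p = 0.365).

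The remaining genes close to silent in WT stayed under the filter in DKO1. Of the 8 genes that were not tested, 7 were called higher when no filter was used. ZNF382, a KRAB gene described as a tumour suppressor that is methylated in several carcinomas, was at 0.19, 0.51 and 0.29 TPM in DKO1, against 0.02, 0 and 0 TPM in WT (log2 fold change 0.39, limma adjusted p = 0.0271 with no filter). It stayed below 1 TPM in every DKO1 sample. ZNF829 reached 0.81, 1.33 and 1.2 TPM in DKO1, against 0, 0 and 0.01 TPM in WT (log2 fold change 1.07, limma adjusted p = 0.00192 with no filter). ZNF790 was at 0.85, 0.9 and 0.65 TPM in DKO1, against 0, 0 and 0.01 TPM in WT, and ZNF345 at 0.46, 0.49 and 0.78 TPM in DKO1, against 0.1, 0 and 0.04 TPM in WT. ZNF540 was listed at 0 in all WT samples and at 0.7, 0.44 and 0.62 TPM in DKO1. ZNF793 and ZFP30 had DKO1 means of 0.29 and 0.3 TPM and WT means of 0.01 TPM each. ZNF781 was the gene of the 8 without a call, at 0.04, 0.06 and 0.09 TPM in DKO1 and 0.05, 0.02 and 0 TPM in WT.

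**Figure D2:**
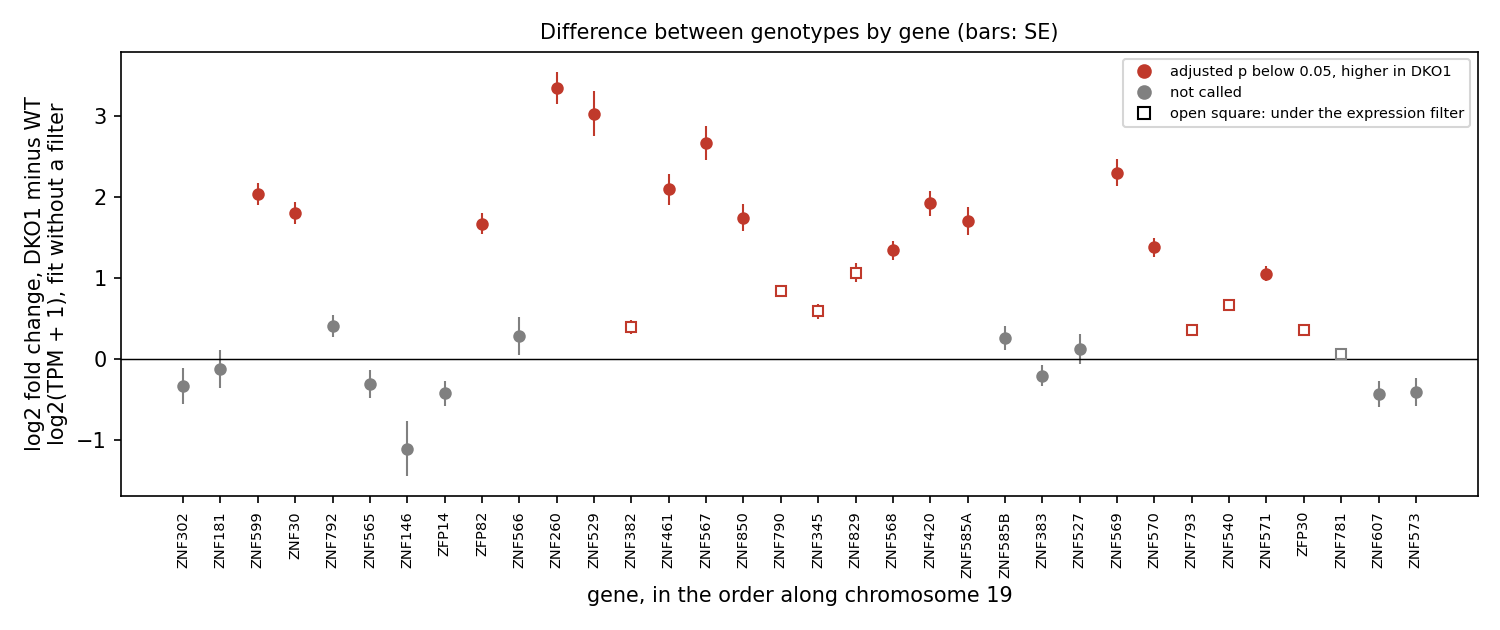
Log2 fold change of each gene (DKO1 minus WT, on log2(TPM + 1), bars are SE) in the fit without an expression filter, with genes in their order along the chromosome; red marks calls at an adjusted p below 0.05 and open squares mark genes under the filter of the main test. Of the 34 genes 21 were called higher, against 14.9% of all genes fitted. All 11 genes from ZNF260 to ZNF420, a stretch delimited after the values were seen, were among them, and ZNF260 is the highest at 3.35.

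The sequences before the starts of these genes were CpG-rich in both groups. RefSeq gave promoter windows on GRCh38.p14 for 30 of the 34 genes (47 windows), and the 250 bases before each start were used. Shown are the 3 silent genes with the highest DKO1 mean and the 3 genes with the highest WT mean, among genes with 1 window, so that both groups can be read side by side. Capitals mark CpG dinucleotides, and each sequence runs 5′ to 3′ on the strand of its gene. The windows are chr19:36528272-36528521, minus strand, for ZNF260, chr19:37467445-37467694, minus strand, for ZNF569 and chr19:36666838-36667087, minus strand, for ZNF461. Those of the genes expressed in WT are chr19:36214856-36215105, plus strand, for ZNF146, chr19:34677428-34677677, plus strand, for ZNF302 and chr19:34733993-34734242, plus strand, for ZNF181.
ZNF260: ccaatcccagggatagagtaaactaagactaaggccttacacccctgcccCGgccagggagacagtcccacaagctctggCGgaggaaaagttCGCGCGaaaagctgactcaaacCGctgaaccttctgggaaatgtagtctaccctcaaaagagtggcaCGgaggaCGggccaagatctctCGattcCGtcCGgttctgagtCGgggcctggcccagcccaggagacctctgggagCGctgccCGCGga
ZNF569: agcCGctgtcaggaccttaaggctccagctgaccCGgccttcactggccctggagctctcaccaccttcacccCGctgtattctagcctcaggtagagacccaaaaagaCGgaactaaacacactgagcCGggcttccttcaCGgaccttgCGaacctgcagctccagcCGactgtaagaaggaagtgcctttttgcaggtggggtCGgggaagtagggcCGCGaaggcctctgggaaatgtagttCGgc
ZNF461: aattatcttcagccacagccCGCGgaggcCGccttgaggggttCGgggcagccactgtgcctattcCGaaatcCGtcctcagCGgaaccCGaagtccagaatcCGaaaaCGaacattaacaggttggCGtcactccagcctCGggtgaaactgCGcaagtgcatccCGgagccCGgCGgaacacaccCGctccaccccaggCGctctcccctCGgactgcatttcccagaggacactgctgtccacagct
ZNF146: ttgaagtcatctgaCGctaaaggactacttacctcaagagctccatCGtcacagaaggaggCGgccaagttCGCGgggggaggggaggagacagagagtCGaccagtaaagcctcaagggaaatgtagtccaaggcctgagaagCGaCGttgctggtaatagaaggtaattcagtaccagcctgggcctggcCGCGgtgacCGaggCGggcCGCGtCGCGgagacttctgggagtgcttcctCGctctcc
ZNF302: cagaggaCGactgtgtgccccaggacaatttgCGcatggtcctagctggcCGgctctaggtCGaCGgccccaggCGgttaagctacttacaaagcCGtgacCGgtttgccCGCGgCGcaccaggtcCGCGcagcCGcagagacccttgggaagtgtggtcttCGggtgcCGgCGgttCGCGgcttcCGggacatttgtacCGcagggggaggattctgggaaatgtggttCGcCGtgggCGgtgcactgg
ZNF181: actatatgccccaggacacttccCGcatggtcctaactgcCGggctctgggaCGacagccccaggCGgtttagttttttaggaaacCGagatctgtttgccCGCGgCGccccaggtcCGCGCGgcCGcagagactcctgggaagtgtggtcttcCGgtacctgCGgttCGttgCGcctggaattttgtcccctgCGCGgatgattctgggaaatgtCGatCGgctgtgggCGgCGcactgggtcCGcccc

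These windows held 15 CpGs for ZNF260, 12 for ZNF569 and 19 for ZNF461, and 17 for ZNF146, 24 for ZNF302 and 23 for ZNF181. Over all windows, averaged per gene, the median was 19 CpGs for the 16 genes silent in WT that had a window and 19 for the 11 genes expressed in all 6 samples, against 11 for all 27305 genes in the table. The observed over expected CpG ratio had a median of 0.743 in the silent genes and 0.847 in the genes expressed in all samples, against 0.545 for all genes. Other zinc finger genes of chromosome 19 had a median of 15 CpGs, and those of other chromosomes 19. Across the 30 genes the CpG count had a Pearson correlation of -0.051 with the log2 fold change (Spearman -0.088), and of 0.067 with log2(TPM + 1) of the WT mean. These are descriptions over genes, several of which share windows and ancestry. DNA methylation itself was not analysed here.

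The windows also shared a word. All 10-base words in the windows of the 30 genes were counted on both strands, 9850 in all, and the word found for the most genes was ATTTCCCAGA, in 13 of 30 (43.3%). Since it was picked for that count, the share is a description. The same word lay before 4.76% of other chromosome 19 zinc finger genes, 1.33% of zinc finger genes of other chromosomes and 0.355% of all genes. Its matches appear as tctgggaaat in the windows of ZNF260, ZNF569, ZNF302 and ZNF181 printed above, and as atttcccaga in that of ZNF461. Of the 13 genes, 7 were silent in WT and on in DKO1 (ZNF260, ZNF420, ZNF461, ZNF567, ZNF568, ZNF569 and ZNF850), of 10 such genes with a window. A further 2 were silent in WT and below 1 TPM in a DKO1 sample (ZNF790 and ZNF829), of 6 with a window. The other 4 were expressed in all 6 samples (ZNF181, ZNF302, ZNF383 and ZNF573), of 11 with a window. The shorter TTCCCAG, which lies inside ATTTCCCAGA, was found for 18 of the 30 genes (60%) and 11.1% of all genes. It lay before 26.5% of other chromosome 19 zinc finger genes and 23.5% of those of other chromosomes. GGGCGG was found for 16 of the 30 (53.3%) and 46.2% of all genes, against 70.9% and 61.9% in these 2 zinc finger sets. CCAAT was found for 8 (26.7%) and 37% of all genes, against 58.7% and 46.5% in them. A match is a description of letters. The back-to-back neighbours ZNF461 and ZNF567 share the same match, as do ZNF829 and ZNF568, so the counts of genes are not counts of separate sites.

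Many of the silent genes lay side by side. In the order of the 34 genes along the chromosome, the 11 neighbours from ZNF260 through ZNF529, ZNF382, ZNF461, ZNF567, ZNF850, ZNF790, ZNF345, ZNF829 and ZNF568 to ZNF420 had DKO1 values from 0.19 to 12 TPM and WT values from 0 to 0.1 TPM. In all 11 every DKO1 sample was above every WT sample, and 7 of them were silent in WT and on in DKO1. Every DKO1 sample was above every WT sample in 22 of the 34 genes, 13.3% of all human genes and 28% of protein-coding genes. The next 4 genes, from ZNF585A to ZNF527, were at 3.72 to 9.79 TPM in DKO1 and 1.52 to 11.1 TPM in WT. After them came the 7 genes from ZNF569 to ZNF781, with DKO1 values from 0.04 to 4.63 TPM and WT values up to 0.12 TPM, of which 6 had every DKO1 sample above every WT sample. The final genes, ZNF607 and ZNF573, were expressed in both lines. These stretches were delimited after the values were seen, and no test was made of them. Neighbours can overlap: 20 of the 34 genes have another gene model on the opposite strand over part of their span, and while the library kit marks the strand, whether the counting used it is not given in the sources used here.

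Many neighbours start back to back from opposite strands, a layout in which both genes can use 1 promoter region. Among the 34 genes, 8 neighbouring pairs had a minus strand gene followed by a plus strand gene. No protein-coding gene started between them, and no limit was set on the distance. In 6 of the 8 pairs the 300-base RefSeq windows shared 121 to 196 bases. In 5 of these 6, ZNF529 with ZNF382, ZNF461 with ZNF567, ZNF790 with ZNF345, ZNF829 with ZNF568 and ZNF569 with ZNF570, both genes had every DKO1 sample above every WT sample. So did 22 of the 34 genes and 28% of protein-coding genes. All but ZNF569 with ZNF570 lie in the stretch from ZNF260 to ZNF420, where all 11 genes did. Whether pairing adds to this was not tested. The partners of a pair did not reach the same level. In DKO1, ZNF529 averaged 7.93 ± 3.1 TPM and ZNF382 0.33 ± 0.16 TPM (SD, n = 3). ZNF461 averaged 3.47 ± 0.91 TPM in DKO1 and ZNF567 5.55 ± 1.6 TPM (SD, n = 3). In the sixth pair ZNF565 overlapped between genotypes and ZNF146 did not. ZNF585B and ZNF383, whose starts lie 7678 bases apart, overlapped between genotypes. ZNF599 and ZNF30 were both called higher. ZNF30 has no RefSeq window, so the distance between their starts was not measured, and a shared promoter region is not shown for either pair.

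**Figure D3:**
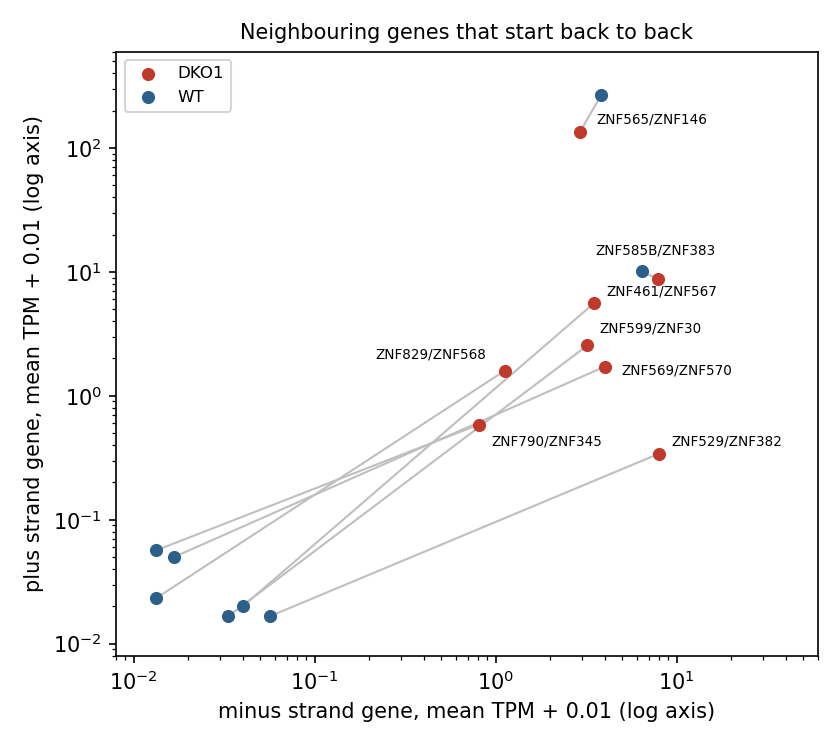
Mean TPM (n = 3, plus 0.01, log axes) of the minus strand gene against the plus strand gene, in DKO1 (red) and WT (blue), joined by a grey line. Shown are the 8 neighbouring pairs in which a minus strand gene is followed by a plus strand gene, at any distance. Windows overlap in 6 pairs, and not shown to overlap are ZNF585B with ZNF383 and ZNF599 with ZNF30. In 6 pairs both genes are higher in DKO1 than in WT, where they sit below 0.1 TPM, while ZNF585B with ZNF383 and ZNF565 with ZNF146 are expressed in both. Of all 34 genes, 22 had every DKO1 sample above every WT sample.

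Of the 12 genes expressed in all 6 samples, ZNF585A was called higher, ZNF146 lower and 10 were not called. ZNF146, also known as OZF, encodes a short protein of zinc fingers without a KRAB domain and is overexpressed in some colorectal and pancreatic cancers. It had the highest TPM of the 34 genes in every sample, at 83.6, 103 and 215 TPM in DKO1 and 245, 269 and 287 TPM in WT. All DKO1 values lay below all WT values, with DKO1 replicate 3 close to WT. The mean was 134 ± 70.8 TPM in DKO1 and 267 ± 21.2 TPM in WT (SD, n = 3; log2 fold change -1.11, SE 0.32, limma adjusted p = 0.037, and 0.00878 with the replicate block). Its call was lost with no filter (adjusted p = 0.074), on leaving out DKO1 replicate 1 or 2 (0.108 and 0.0811) and on leaving out any WT replicate (0.0848 to 0.119), with log2 fold changes from -1.17 to -0.84 in these fits. With ZNF146 included, the summed TPM of the 34 was 188, 231 and 366 in DKO1 and 316, 343 and 367 in WT. Without ZNF146 the sum was 104, 128 and 152 TPM in DKO1 and 71.3, 73.8 and 80.1 TPM in WT.

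ZNF585A and ZNF585B are neighbouring duplicates, and ZNF585A rose in DKO1 while ZNF585B did not pass the test. ZNF585A was at 9.35, 8.33 and 9.77 TPM in DKO1, against 2.39, 1.52 and 2.52 TPM in WT, 4.27-fold higher (log2 fold change 1.70, SE 0.18, limma adjusted p = 0.000419). ZNF585B was at 6.65, 8.43 and 8.44 TPM in DKO1 and 7.28, 6.22 and 5.65 TPM in WT (log2 fold change 0.26, SE 0.17, limma adjusted p = 0.289). The first gene separated the genotypes fully and the second overlapped. The ratio of ZNF585A to ZNF585B was 1.18 ± 0.21 in DKO1 and 0.34 ± 0.1 in WT (SD, n = 3). On the log2 ratio of TPM + 1, the two-sided exact permutation p was 0.1, the smallest that 3 against 3 samples allow. Of the distinct 50-base words in the transcripts, 11% of those of ZNF585A also occur in ZNF585B and 15.5% of those of ZNF585B in ZNF585A, so the split of reads between them is uncertain.

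**Figure D4:**
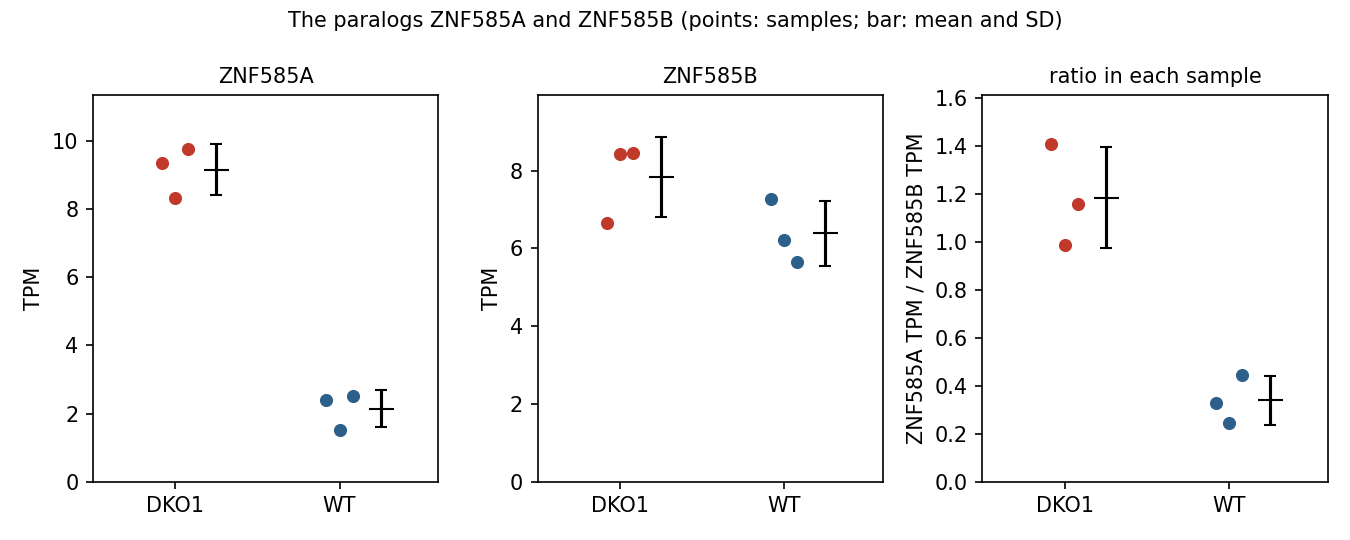
TPM of ZNF585A and of ZNF585B and their ratio in each sample, DKO1 left and WT right; points are samples and bars are the mean and SD (n = 3). ZNF585A is at 8.33 to 9.77 TPM in DKO1 and 1.52 to 2.52 TPM in WT, while the values of ZNF585B overlap.

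The other genes expressed in both lines did not pass the test. ZFP14 was at 1.64, 2.1 and 1.94 TPM in DKO1 and 2.8, 3.14 and 2.72 TPM in WT (log2 fold change -0.43, SE 0.14, limma adjusted p = 0.0631). ZNF607 was at 1.87, 1.58 and 2.06 TPM in DKO1 and 2.98, 3 and 2.5 TPM in WT (log2 fold change -0.43, SE 0.15, limma adjusted p = 0.066). ZNF573 was at 2.28, 2.69 and 1.82 TPM in DKO1 and 3.05, 3.16 and 3.71 TPM in WT (log2 fold change -0.41, SE 0.16, limma adjusted p = 0.106). In each of these genes every DKO1 sample lay below every WT sample. Under median-ratio scaling ZFP14 and ZNF607 were called lower (adjusted p = 0.04 and 0.0287). Over all tested genes the median log2 fold change was -0.05 with that scaling and -0.07 with quantile normalization, against 0.07 without either.

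ZNF302 was at 12.1, 16.5 and 22.8 TPM in DKO1 and 20.3, 21.8 and 21.7 TPM in WT, and ZNF181 at 7.79, 9.34 and 14.3 TPM in DKO1 and 9.5, 11.1 and 13.3 TPM in WT. Both overlapped between genotypes, with adjusted p-values of 0.289 and 0.728 by limma, and ZNF302 was called lower without DKO1 replicate 3 (log2 fold change -0.56, adjusted p = 0.0419). ZNF383 averaged 8.68 ± 1.04 TPM in DKO1 and 10.2 ± 0.89 TPM in WT, and ZNF566 6.93 ± 1.63 TPM in DKO1 and 5.55 ± 1.5 TPM in WT (SD, n = 3). ZNF527 averaged 4.81 ± 0.99 TPM in DKO1 and 4.31 ± 0.66 TPM in WT, and ZNF565 2.9 ± 0.58 TPM in DKO1 and 3.82 ± 0.38 TPM in WT (SD, n = 3). Their values overlapped between genotypes as well. ZNF792 lay between the groups, at 1.28, 1.08 and 1.2 TPM in DKO1 and 0.86, 0.53 and 0.58 TPM in WT, 1.81-fold higher without a call (log2 fold change 0.40, limma adjusted p = 0.0643). It was called higher when mitochondrial genes and rows without an Ensembl identifier were left out and the rest rescaled (adjusted p = 0.0418), and turned to -0.27 under quantile normalization.

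Among other zinc finger genes of chromosome 19, calls higher in DKO1 outnumbered calls lower, as they did over all tested genes. Of 216 such protein-coding genes 149 were tested, with 67 called higher (45%) and 11 lower (7.38%), against 18.8% and 9.6% of all tested genes. Of the 149, 49 passed the filter through DKO1 alone. Without a filter 99 of 215 were called higher (46%), against 14.9% of all genes then fitted. The share was 21 of 34 for the genes described here (61.8%) and 46 of 267 for zinc finger genes on other chromosomes (17.2%). Among genes silent in WT, 32 of 88 on chromosome 19 and 18 of 51 elsewhere were on in DKO1. No test of the difference between these sets was made. ZNF875 (HKR1), a zinc finger gene between ZNF383 and ZNF527 that is not among the 34, was at 10.1, 7.8 and 13.4 TPM in DKO1 and 8.96, 9.15 and 10.5 TPM in WT and was not called (limma adjusted p = 0.773).

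**Figure D5:**
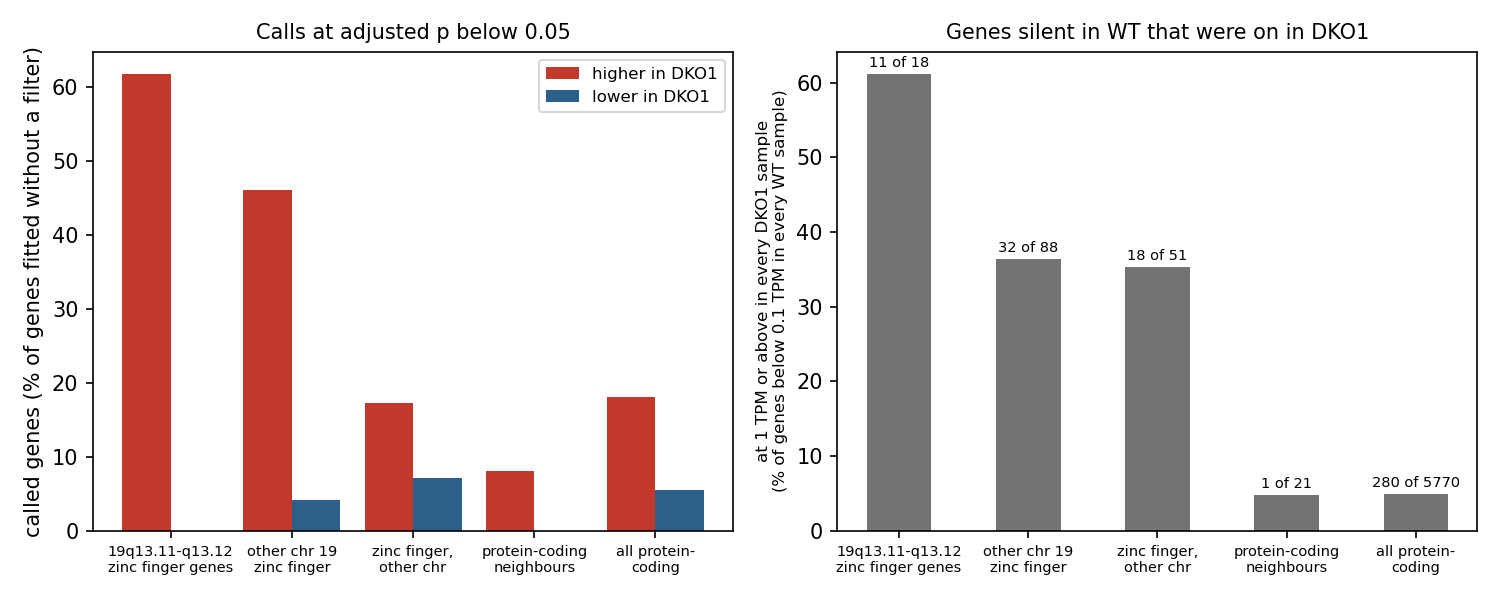
Left, the share of genes called higher (red) or lower (blue) in DKO1 among genes fitted without a filter, for the 34 zinc finger genes, other zinc finger genes of chromosome 19, zinc finger genes of other chromosomes, protein-coding neighbours and all protein-coding genes. Right, of genes below 0.1 TPM in every WT sample, the share that reached 1 TPM in each DKO1 sample, with counts above the bars; 11 of 18 zinc finger genes of 19q13.11 to q13.12 met this, against 280 of 5770 protein-coding genes.

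Genes of other kinds that lie between the first and the last of the 34 were mostly not called. Of 57 protein-coding neighbours 26 were tested, with 4 called higher (15.4%) and 0 lower, against 18.8% and 9.6% of all tested genes. Of these 4, CD22, HSPB6 and CLIP3 passed the filter through DKO1 alone, where 96.2% of all genes were called higher. Without a filter 4 of 50 were called higher (8%), against 14.9% of all genes then fitted. Without DKO1 replicate 2, 7 were called higher. CD22, a lectin receptor of B cells, was at 7.08, 7.88 and 7.78 TPM in DKO1, against 0.32, 0.43 and 0.34 TPM in WT (log2 fold change 2.65, limma adjusted p = 1.74e-05). HSPB6, a small heat shock protein, was at 2.78, 1.36 and 4.23 TPM in DKO1 and listed at 0 in WT (limma adjusted p = 0.00216). APLP1, a relative of the amyloid precursor protein, was 2.22-fold higher, at 29.5 ± 1.61 TPM in DKO1 and 13.3 ± 1.85 TPM in WT (SD, n = 3). CLIP3, a microtubule-associated protein, averaged 1.22 TPM in DKO1 and 0.15 TPM in WT. Of 21 neighbours silent in WT, 1 was on in DKO1, against 11 of the 18 zinc finger genes silent in WT. The 57 neighbours run from GRAMD1A to COX7A1, between ZNF792 and ZNF565, and none lies among the genes from ZNF260 to ZNF573. These counts therefore come from different parts of the region.

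Most genes for the proteins through which KRAB zinc fingers act were expressed in both lines. Of 23 listed partners 22 were found and tested, and 20 of them were at 1 TPM or above in all 6 samples. There were 2 called higher (9.1%) and 6 lower (27.3%), against 18.8% and 9.6% of all tested genes. TRIM28 was at 116, 45.8 and 148 TPM in DKO1 and 148, 80.9 and 134 TPM in WT, with replicate 2 lowest in both (limma adjusted p = 0.606). SETDB1 averaged 31.6 ± 2.76 TPM in DKO1 and 33.5 ± 5.36 TPM in WT (SD, n = 3; limma adjusted p = 0.763). The lower genes were the HP1 genes CBX1 and CBX3, the remodellers CHD3 and SMARCAD1, the methyltransferase SUV39H2 and TASOR of the HUSH complex. CBX3 averaged 427 ± 124 TPM in DKO1 and 769 ± 61.2 TPM in WT (log2 fold change -0.89, limma adjusted p = 0.0181), and TASOR 23 ± 7.79 TPM in DKO1 and 42.5 ± 4.67 TPM in WT (log2 fold change -0.90, limma adjusted p = 0.0261). The count of lower partners was 8 with the replicate block, where the HP1 gene CBX5 and the methyltransferase SUV39H1 were also called (limma adjusted p = 0.0189 and 0.0427, against 0.0635 and 0.175 without the block). It was 3 without DKO1 replicate 1 and 1, 0 and 0 without WT replicates 1, 2 and 3. The higher genes were zinc finger genes themselves. ZFP57, which protects imprinted methylation, was at 4.1, 2.08 and 4.47 TPM in DKO1 and listed at 0 in WT, and ZNF274, which guides SETDB1 to the finger exons of zinc finger genes, averaged 21 ± 4.28 TPM in DKO1 and 7.23 ± 0.67 TPM in WT, 2.9-fold higher (log2 fold change 1.40, limma adjusted p = 0.00106).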

How the data were processed

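RNA of 3 DKO1 and 3 WT samples was analysed from 1 deposited table of TPM per gene, which the authors rounded to 2 decimals. The submitters' processing notes name RSEM 1.2.21, STAR 2.5.3a, edgeR 3.12.1, FastQC and Trim Galore 0.4.0, with builds hg19 and GRCh37, giving no role or order. Neither the annotation release nor the strand setting is given in the sources used here. The table held 57820 human genes and 77 other rows without an Ensembl identifier, which stayed out of every test. TPM keeps no depth, so no counting interval is given.

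Symbols came from a reference table by Ensembl identifier, and gene order, strand and biotype from GENCODE release 29 on GRCh38, used for names and neighbours. limma 3.58.1 in R 4.3.3 compared the genotypes on log2(TPM + 1), letting the variance follow the mean, over genes at 1 TPM or above in at least 3 of 6 samples, with Benjamini-Hochberg adjustment over all 13604. A positive log2 fold change means higher in DKO1, and the scale understates the change of low genes. No ratio is given where a group's mean was below 0.5 TPM. Deviations from the genotype mean correlated between same-numbered DKO1 and WT samples (r = 0.35, 0.572 and 0.267 over tested genes). Between different numbers r ran from -0.383 to 0.128. Centring on 3 samples ties these values to each other, so they cannot establish a pairing, and the labels do not name one. The main fit used no pairing, and the replicate block was an alternative.

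The members, lists and tests were chosen with earlier results of these data known. Full values were given by rule for called members, genes silent in WT and on in DKO1, the highest genes and named pairs. The partner list held 23 genes. UHRF1 was not matched, and protein features were not analysed here. TTCCCAG was chosen after the promoter sequences were read. The fit was tested on simulated data. Alternatives were another pseudocount (0.1), no filter, a minimum mean of 5 TPM, 3 other scalings (median-ratio, quantile, and rescaling without mitochondrial genes and these other rows), no variance trend, a replicate block and leaving out each sample.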

Additional observations from a re-analysis of the deposited data

How the results depend on the processing

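The 14 zinc finger genes called higher stayed at 14 without each of the 6 samples in turn, with a pseudocount of 0.1, under median-ratio scaling, without a variance trend and with the replicate block. The count was 12 under quantile normalization, 15 after rescaling, 21 of 34 with no filter and 2 of 8 above a mean of 5 TPM, where fewer genes were tested. Of the 14, 13 passed the filter through DKO1 alone, and 96.2% of all such genes were called higher. The fits without a sample kept the filter set on all 6 samples, so an unchanged count was largely fixed by the filter. The count of lower genes, 1 in the main fit, was 0 with no filter, 3 under median-ratio scaling, 5 under quantile normalization, 3 without a variance trend and 0 to 2 without single samples. The replicate block gave 14 higher and 1 lower and changed no call among the zinc finger genes. Partners called lower, 6 in the main fit, numbered 8 with the block and 0 to 7 without single samples. Partners called higher, 2 in the main fit, numbered 1 above a mean of 5 TPM. Neighbours called higher, 4 in the main fit, numbered 5 with the block, 1 above a mean of 5 TPM and 4 to 7 without single samples.

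The median log2 fold change of the tested zinc finger genes, 1.2 beside 0.07 for all genes, was 2.69 with a pseudocount of 0.1, 0.62 with no filter, 0.066 above a mean of 5 TPM, 0.44 under quantile normalization and 1.47 after rescaling, and 1.15 to 1.25 without single samples. Genes silent in WT and on in DKO1 numbered 13 with a DKO1 limit of 0.5 TPM, 11 to 12 without single samples and 0 when WT had to be exactly 0. These 4 uncalled values changed sign: ZNF181 to 0.046 without DKO1 replicate 1 (-0.36 to 0.046 over single samples left out), and ZNF792 to -0.27, ZNF566 to -0.0086 and ZNF527 to -0.21 under quantile normalization. DNMT3B was not called after rescaling (log2 fold change -0.55), nor in 4 of 6 fits without a sample (-0.69 to -0.51 over all 6). The causes of these shifts were not tested. The depth behind values below 0.1 TPM is unknown.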

Other observations

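Noncoding genes of the same stretch that are named after a zinc finger gene or as a lincRNA were chosen for a look after the values were seen. LINC00665 was at 8.96, 8.16 and 8.27 TPM in DKO1, against 0.05, 0.16 and 0.21 TPM in WT (log2 fold change 3.05, SE 0.14, limma adjusted p = 1.17e-05). ZNF790-AS1 was at 1.91, 2.38 and 2.2 TPM in DKO1, ZNF571-AS1 at 1.32, 1.87 and 1.09 TPM and ZNF529-AS1 at 1.27, 0.95 and 1.27 TPM, and all 3 were listed at 0 in every WT sample. ZNF790-AS1 and ZNF571-AS1 were called higher, and ZNF529-AS1 did not enter the filtered test (limma adjusted p = 0.00096 with no filter). LINC00665, ZNF790-AS1 and ZNF571-AS1 passed the filter through DKO1 alone, where 96.2% of all genes were called higher. ZNF790-AS1, ZNF571-AS1 and ZNF529-AS1 are each named after a zinc finger gene that was also higher in DKO1. Where the counting did not use the strand, the reads of the partners cannot be told apart. ZNF566-AS1, beside the uncalled ZNF566, was at 0.23, 0.18 and 0.14 TPM in DKO1 and 0.31, 0.28 and 0.14 TPM in WT. ZNF793-AS1 was at 0.32, 0.54 and 0 TPM in DKO1 and at 0 in WT. It was not called when no filter was used, while ZNF793 was called higher there. LINC02965, LINC00904, LINC01838, LINC01531 and LINC01766 were listed at 0 in every sample.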
